A study of Mus musculus with 2 samples.

Results

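The 6 genes Olig1, Olig2, Neurod1, Insm1, Sox11 and Ina encode 5 transcription factors of neural development and 1 neurofilament subunit. Their signals were followed in mouse embryonic stem (ES) cells with a knockout of Eed (Eed KO in the labels) and in the control cells of that knockout. Every probe set whose only gene symbol in the platform annotation is 1 of the 6 was taken, which gave 15 of 45101 probe sets and 6 of 18193 genes. Each probe set combines several short DNA probes for a transcript into 1 signal. The 6 genes were chosen by their signals on these arrays, far higher in the control than in the Eed KO, with no stated threshold. The size of that difference is therefore a description of how they were chosen and not a result.

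The series compares 2 Affymetrix MOE430 2.0 arrays, 1 of the control and 1 of the Eed KO cells, both hybridised with cRNA made from total RNA. The knockout is described by the submitters as constitutive. The labels used here name no strain, parent line, clone, passage or feeder layer for either culture, and no treatment. With 1 array per group there is no replicate, so no error between cultures and no p-value can be given, and each difference compares these 2 arrays only. In bulk RNA, fewer cells that transcribe a gene and less transcript per cell cannot be told apart.

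Polycomb repressive complex 2, of which the Eed protein is a core part, methylates lysine 27 of histone H3 and is known for keeping developmental regulators silent in ES cells. Olig1, Olig2 and Neurod1 are basic helix-loop-helix (bHLH) factors, which bind E-box DNA as dimers: the Olig proteins act in motor neuron and oligodendrocyte progenitors, and Neurod1 in the differentiation of neurons and of endocrine cells. Insm1 is a zinc finger repressor of neuronal and neuroendocrine progenitors, Sox11 an HMG-box factor of the SoxC group in newly formed neurons, and Ina encodes alpha-internexin, an intermediate filament protein of neurons.

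Promoter sequence was matched by symbol for 4 of the 6 genes in the RefSeq promoter table of mouse build GRCm38.p6, and is printed because these genes were low together in the Eed KO array while nothing in their selection used sequence. Each window runs from 250 bases before to 50 after the annotated start. It lies at chr16:91225300-91225599 on the + strand for Olig2, chr2:79456587-79456886 on the - strand for Neurod1, chr12:27342669-27342968 on the - strand for Sox11 and chr19:47014431-47014730 on the + strand for Ina. Sequences are written 5′ to 3′ in lower case, with capitals for each match to CANNTG, the general E-box.
Olig2: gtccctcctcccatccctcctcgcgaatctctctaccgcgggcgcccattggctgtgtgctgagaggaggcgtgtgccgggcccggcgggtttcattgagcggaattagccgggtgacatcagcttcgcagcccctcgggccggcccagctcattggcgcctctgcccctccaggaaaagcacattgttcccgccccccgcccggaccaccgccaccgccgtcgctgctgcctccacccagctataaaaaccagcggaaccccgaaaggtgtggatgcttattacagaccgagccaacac
Neurod1: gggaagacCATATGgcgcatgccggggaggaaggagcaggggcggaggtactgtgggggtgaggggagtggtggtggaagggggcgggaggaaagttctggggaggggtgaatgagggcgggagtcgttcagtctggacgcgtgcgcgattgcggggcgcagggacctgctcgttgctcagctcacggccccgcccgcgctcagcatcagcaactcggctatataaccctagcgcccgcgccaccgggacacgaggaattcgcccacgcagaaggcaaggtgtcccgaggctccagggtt
Sox11: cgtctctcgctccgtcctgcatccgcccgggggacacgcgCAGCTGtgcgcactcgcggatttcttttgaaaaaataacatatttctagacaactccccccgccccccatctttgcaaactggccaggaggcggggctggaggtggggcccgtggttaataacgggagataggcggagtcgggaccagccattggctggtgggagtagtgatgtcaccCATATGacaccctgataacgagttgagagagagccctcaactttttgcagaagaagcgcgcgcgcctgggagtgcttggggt
Ina: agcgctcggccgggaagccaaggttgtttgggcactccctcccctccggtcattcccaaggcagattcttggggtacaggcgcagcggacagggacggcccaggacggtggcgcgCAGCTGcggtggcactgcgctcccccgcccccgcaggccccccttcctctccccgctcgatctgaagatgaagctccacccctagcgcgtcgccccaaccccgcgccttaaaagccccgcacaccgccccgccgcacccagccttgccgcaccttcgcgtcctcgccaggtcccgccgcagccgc

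All 4 windows were rich in CG dinucleotides, a C followed by a G on the same strand, which are dense in vertebrate CpG islands. They held 25 (Olig2), 26 (Neurod1), 21 (Sox11) and 32 (Ina), against a median of 7 in the 32817 promoters of the table. Fewer CG dinucleotides were found in 81.6%, 83.1%, 75.2% and 90.5% of all promoters, respectively. The GC content was 65.0%, 66.7%, 58.7% and 71.7%, against a median of 52.7%.

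The E-box CANNTG had 0 matches in the Olig2 window, 1 in that of Neurod1, 1 in that of Ina and 2 in that of Sox11, and 72.3% of all promoters hold at least 1. Its form CAGCTG, counted within the same matches, stood 135 bases before the start of Ina and 210 before that of Sox11, and 16.3% of all promoters hold it. Every window had the GC box CCGCCC, with 4 matches at Neurod1 and 2 at each of the others, and 35.6% of all promoters hold it. All promoters had a lower median GC content (52.7%) than any of these windows, and promoters of like GC content were not compared. The Sox-type motif AACAAT matched 1 time, in Olig2 (10.7% of all promoters). CCAAT, the core of the CCAAT box, matched 2 times in Olig2 and 1 time in Sox11 (37.4%), and TATAAA, the core of the TATA box, 1 time in Olig2 (13.6%). There was no match to CAGATG (17.2% of all promoters), ACAAAG (18.7%), the POU octamer ATGCAAAT (1.74%) or either arm of the site of the neuronal repressor Rest, TTCAGCACC (0.372%) and GGACAGCGC (0.402%). All motifs were searched on both strands, and a match is a match of letters only.

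The signals are MAS5 intensities on a linear scale, already scaled by the authors to the same trimmed mean of 500.0 on both arrays. Signals up to 61.3, the 40th percentile over both arrays without the manufacturer's control probe sets, were treated as not told apart from background, and this value is called the floor. In ratios the floor stands in for any lower signal, which makes the ratio a lower bound, written "at least". Genes over the floor on either array are called measured here, and a difference of 2-fold or more in floored signal is a call. Where a gene has several probe sets, the brightest by mean log2 signal represents it. Log2 ratios are Eed KO over control. Of 13794 measured genes, 451 (3.27%) were called lower and 1483 (10.8%) higher. The cells of both arrays carried the ES cell markers: all 8 of 8 were above the floor on both, and their summed signal was 112917 on the control array against 130929 on the Eed KO array. Among them Nanog, Zfp42 and Fbxo15 had log2 ratios of 0.85, 0.78 and 0.75 and Utf1 of -0.71, and 0 of 8 were called as deposited. With equal medians, 1 of 8 was called lower. A dimmer Utf1 probe set read 966.1 and 326.1, a log2 ratio of -1.57, and the remaining one was under the floor on both arrays. Eed itself read 10101 and 11456 on its brighter probe set. The labels do not place the disruption, so that signal checks nothing.

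All 6 genes were called lower in the Eed KO array, where 3.27% of measured genes were, a count that the choice of the genes fixes. At 3-fold, 6 of 6 were again lower, against 0.739% of all measured genes, while 3.53% were higher. At 1.5-fold, 10.2% of all measured genes were lower and 23.3% higher. Every one of their 15 probe sets was above the floor in the control, from 199.7 to 1441. All 15 were lower in the Eed KO, where they ran from 3.1 to 160.2, and 5 of them lay under the floor there. No control signal overlapped the Eed KO range, but the genes were chosen on these same signals, so this separation is no result. Of 4860 genes with control signals in the range of the 6 representing probe sets, the 6 included, 205 were called lower. In the Eed KO, 7 of the 4860 were under the floor. The median log2 ratio of the 6 genes was -2.99, against 0.12 for all measured genes. At this floor, Olig1, Olig2 and Insm1 were under the floor in the Eed KO on every probe set, while Neurod1, Sox11 and Ina stayed above it on the probe set that represents them. That split depends on the floor: Olig1 and 1 probe set of Insm1 were above the floor at percentile 25 (29.7), and all 6 genes were under that at percentile 60 (168).

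**Figure D1:**
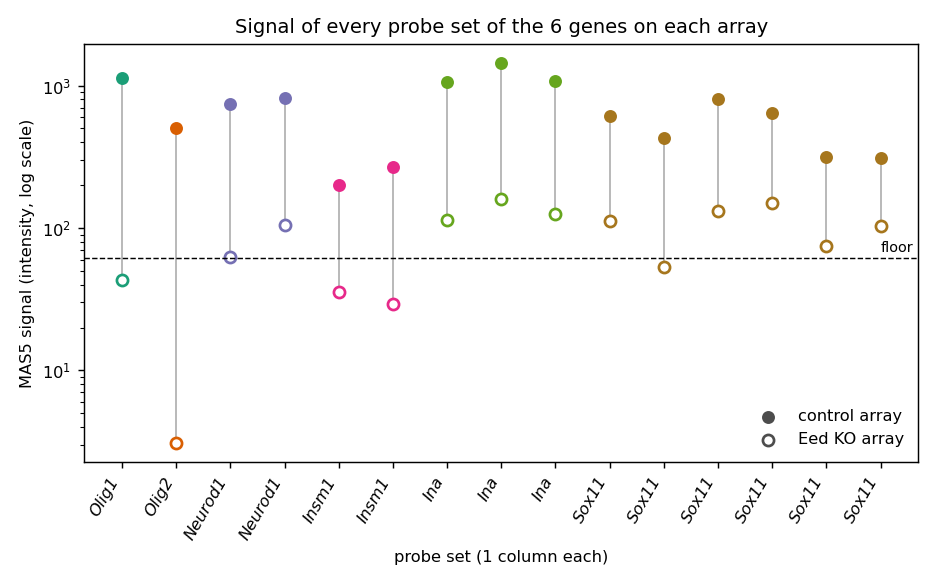
MAS5 signal (log axis) of each of the 15 probe sets on the control array (filled) and the Eed KO array (open), joined by a line, with the floor of 61.3 dashed. All 15 filled points lie between 199.7 and 1441 and all open points at or below 160.2, with 5 of them under the floor.

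The bHLH genes come first. Olig1, with the single probe set 1416149_at, read 1127 on the control array and 43.3 on that of the Eed KO, which is at least 18.4-fold lower. Its partner gene Olig2, with the single probe set 1416232_at, read 499.9 and 3.1, at least 8.15-fold lower. Both were thus well above the floor in the control and under it in the Eed KO. The 2 bounds are set by the control signal over the floor and give no order between the genes.

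Neurod1 was measured by 2 probe sets, and these repeated each other. The brighter, 1426413_at, read 813.5 and 104.5, which is 7.78-fold lower, and 1426412_at read 744.5 and 62.9, which is 11.8-fold lower. The second value in the Eed KO lay just above the floor.

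Insm1, the zinc finger gene, had the lowest control signals relative to the floor. Its 2 probe sets, 1455865_at and 1421399_at, had control signals of 269.9 and 199.7. Their Eed KO signals were 29.1 and 35.5. Both were under the floor there, giving at least 4.40-fold and at least 3.26-fold lower. With a floor at percentile 60 the bound became a log2 ratio of -0.68, which is under 2-fold, so this call rests on where the floor is set.

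Sox11, with 6 probe sets, was the most often measured of the 6. On the control array they read 806.1, 643.2, 611.4, 430.6, 314.1 and 311.5. The same probe sets then read 132.0, 149.8, 111.7, 53.2, 74.9 and 104.0 on the Eed KO array. All 6 were lower in the Eed KO, 1 of them under the floor. The ratios ran from 2.995-fold to at least 7.02-fold lower and had a mean log2 ratio of -2.27 with an SD of 0.44 over probe sets. The probe set that represents the gene, 1431225_at, was 6.11-fold lower.

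Ina, the only structural gene of the 6, gave the tightest set of repeated readings. Its 3 probe sets, 1448991_a_at, 1448992_at and 1418178_at, had control signals of 1441, 1071 and 1060. Their Eed KO signals were 160.2, 125.7 and 112.9. They were 8.995-, 8.52- and 9.39-fold lower, with a mean log2 ratio of -3.16 and an SD of 0.07 over probe sets. All 3 stayed above the floor in the Eed KO. Probe sets of a gene share 1 hybridisation per array, so this spread holds no variation between cultures.

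The spread between probe sets was taken from the brightest pair of each gene with several probe sets above the floor on both arrays. The log2 ratio of a single probe set then had an SD of 0.46 at mean signals up to 128. It was 0.47 at 128 to 256 and 0.38 at 256 to 512. This spread covers technical and isoform differences only. It leaves out probe sets under the floor, as those of Olig1, Olig2 and Insm1 were in the Eed KO. The floored log2 ratios of the 6 genes ran from -4.20 (Olig1) to -2.14 (Insm1), and those of Olig1, Olig2 and Insm1 are bounds. As no threshold was stated for choosing them, the genes beside Insm1 in the order of floored ratios are given. Fgf17 (498.5 to 113.2) and Gli1 (581.0 to 127.2) stood just before it, and Thbs3 and Plvap, whose ratios are bounds like that of Insm1, just after it. These 4 were named for their place in that order.

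**Figure D2:**
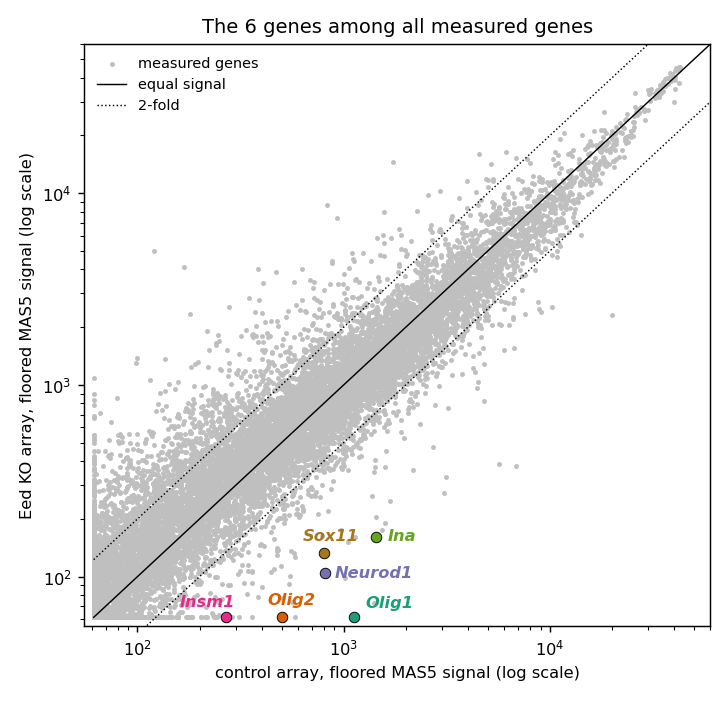
Floored signal of the measured genes on the control array (x, log axis) and the Eed KO array (y, log axis), with lines at equal signal and at 2-fold. The 6 genes lie below the lower 2-fold line, and Olig1, Olig2 and Insm1 lie on the floor of the Eed KO axis.

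The other bHLH genes of neurogenesis were mostly too low to measure. Of 12 proneural and related bHLH factors on the array, 7 were under the floor on both arrays: Neurog2, Neurod4, Neurod6, Atoh7, Olig3, Bhlhe23 and Nhlh2. Of the 5 measured, 0 were called in either direction (background 3.27% lower and 10.8% higher). Neurod2, a later neuronal family member, read 104.4 and 34.3, at least 1.70-fold lower, and was called lower with a floor at percentile 25. Neurog1 (12.3 to 74.9), Atoh1 (44.4 to 65.6) and Nhlh1 (55.0 to 67.5) were above the floor only in the Eed KO, which fixed their direction, and Neurog3 read 86.5 and 88.0. Neurog1 was called higher with the floor at percentile 25, at a log2 ratio of 1.33. Its other probe set went the other way at 40.1 and 19.0, above that lower floor only in the control.

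The proteins that these bHLH factors pair with were measured well. E proteins are the general dimer partners, and Id proteins bind E proteins without binding DNA. All 7 genes were above the floor on both arrays, with 1 called higher and 0 lower (background 10.8% and 3.27%) and a median log2 ratio of 0.57. Id3 read 869.0 and 1843, 2.12-fold higher, but under 2-fold when scaled on the poly-A spikes or to equal medians. The Id genes went both ways, since Id2 had a log2 ratio of 0.80 and Id1, named after its value was seen, read 2749 and 1715, a log2 ratio of -0.68. So did the E protein genes: Tcf3 read 1270 and 664.8, with all 3 probe sets lower at log2 ratios of -0.93 to -1.34, and Tcf12 read 942.7 and 1672, with a log2 ratio of 0.83. Tcf3 was called lower with both spike scalings, when scaled to equal medians and as the mean over probe sets.

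The other SoxC genes were not called. Sox4 read 2773 and 2220, a log2 ratio of -0.32, and Sox12 638.9 and 457.6, a log2 ratio of -0.48. Another Sox12 probe set read 114.5 and 10.6, under the floor in the Eed KO, with a bound of -0.90. Of the 8 Sox4 probe sets, the 6 measured had log2 ratios of -0.51 to 0.48. Of 13 other Sox genes, 9 were measured and 0 were called (background 3.27% lower and 10.8% higher). Their median log2 ratio was 0.10, which turned below 0 under 4 of the 5 other scalings.

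Among the SoxB genes of ES cells and neural progenitors, Sox2 read 11826 and 8531, Sox3 237.1 and 254.0, and Sox21 246.2 and 384.9. Sox1, a marker of the neural plate, read 5.2 and 19.3, under the floor each time, as were Sox5, Sox8 and Sox14. Sox6 (62.5 to 123.1), Sox10 (65.5 to 82.6) and Sox13 (432.5 to 381.7) were within 2-fold. Sox9 (26.8 to 75.4) was above the floor only in the Eed KO, at least 1.23-fold higher, and was called higher with a floor at percentile 25 (log2 ratio 1.34).

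The other 7 intermediate filament genes of the list were all measured. With the deposited values 0 were called lower and 1 higher (background 3.27% and 10.8%). Alpha-internexin assembles with the neurofilament triplet proteins, whose genes are Nefl, Nefm and Nefh. Nefl read 886.2 and 840.9, with a log2 ratio of -0.08, and its other probe set had one of -0.19. Nefh read 734.2 and 612.3, and Nefm 103.8 and 184.9. No member of the triplet was called in either direction. Peripherin, Prph (76.6 to 130.7), and nestin, Nes (140.2 to 202.5), were within 2-fold too. Gfap, the astrocyte filament gene, was under the floor in the Eed KO (70.7 to 24.1, at least 1.15-fold lower) and was called lower with a floor at percentile 25 (log2 ratio -1.25). Vim, which encodes vimentin of mesenchymal and progenitor cells, was the 1 of 7 called, at 4989 and 11776 (2.36-fold higher, and a log2 ratio of 0.93 when scaled to equal medians).

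Of the other neuronal zinc finger genes and the genes of the Rest complex, 10 were measured and 0 were called (background 3.27% lower and 10.8% higher). The median log2 ratio was 0.15. Insm2, the paralogue of Insm1, was under the floor on both arrays (43.7 and 8.0), as were Myt1 and St18. Rest, the repressor of neuronal genes outside neurons, read 5808 and 4006, with all 4 probe sets at log2 ratios of -0.79 to -0.23. Rest and these 3 genes under the floor were named after their values were seen. The most different members were Myt1l (64.4 to 126.9) and Zic1 (34.3 to 114.1, above the floor only in the Eed KO), near the floor, and the CoREST genes Rcor3 and Rcor2, with log2 ratios of 0.85 and -0.67. Zic1 was called higher with a floor at percentile 25 (log2 ratio 1.73).

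Of the listed markers of oligodendrocytes, neural progenitors and neurons, which are among the cells in which the 6 genes act, 1 was called lower (background 3.27%). For the oligodendrocyte lineage, 6 of 11 genes were measured, with 2 called higher (background 10.8%) and 0 lower (3.27%). The progenitor transcription factor genes Nkx2-2, Nkx6-1 and Nkx6-2 and the myelin gene Mog were under the floor on both arrays, and are named here because their values were seen. Nkx6-3, a relative outside the list that was also named after its value was seen, read 286.9 and 49.9, with a bound of -2.23. The growth factor receptor gene Pdgfra, also expressed by fibroblasts, read 94.8 and 265.8 (2.80-fold higher). The myelin gene Mbp read 69.8 and 255.3 (3.66-fold higher), with 5 measured probe sets between -0.36 and 1.87 on the log2 scale. Taken as the mean over probe sets, or with a higher floor at percentile 60, both came to under 2-fold. Cnp had a log2 ratio of 0.73, and Myrf, a myelin regulator, read 799.3 and 433.3. Myrf was called lower after quantile normalization, with the poly-A spikes and with equal medians (log2 ratio -1.19). Mag, also named after its value was seen, read 68.6 and 22.1 and was called lower with a floor at percentile 25 (log2 ratio -1.21).

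For neural progenitors, 8 of 15 genes were measured, with 3 called higher (background 10.8%) and 0 lower (3.27%). The 3 were the adhesion genes Cdh2 (152.7 to 404.9, 2.65-fold) and Ncam1 (139.9 to 321.3, 2.30-fold) and the homeobox gene Irx3 (88.2 to 227.2, 2.58-fold). Ncam1 was under 2-fold in 6 alternatives and Irx3 in 2, while Cdh2 stayed called under the 10 alternatives of scaling, floor and probe set choice. Six3 read 71.6 and 131.7. The list holds Pou3f2 and Pou3f3 but not their relative Pou3f1, which read 1678 and 247.9, a log2 ratio of -2.76. Pou3f1 was named after its value was seen. The progenitor genes Hes5 (19.9 and 35.3) and Fabp7 (4.8 and 43.9), named after their values were seen, were under the floor on both arrays.

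For neurons, the list summed to a signal of 12758 on the control array against 12441 on the Eed KO array. Stmn2 alone gave 5927.5 and 7064.1 of these sums. Of 20 genes 15 were measured, with 1 called lower (background 3.27%) and 1 higher (10.8%). The lower one was Crmp1, which encodes a cytosolic protein of growing axons: it read 1579 and 373.7, 4.22-fold lower, on its 1 probe set. Crmp1 was called lower in every alternative, with log2 ratios of -2.39 to -1.91. Elavl3, an RNA-binding protein gene of early neurons, read 229.5 and 115.4, a log2 ratio of -0.99, and was called lower under all 5 other scalings. Rbfox3 was above the floor only in the Eed KO (32.0 to 185.6, at least 3.03-fold higher), while its other measured probe set had a log2 ratio of -0.11. Rbfox3 came to under 2-fold as the mean over probe sets and with a floor at percentile 60 (log2 ratio 0.14). Map2 read 92.6 and 166.0.

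Notch signalling holds back neuronal differentiation in progenitors, and its list had the other gene close to the 6. Of 9 measured genes, 1 was called lower (background 3.27%) and 1 higher (10.8%). Hes6, which encodes an antagonist of Hes1 that promotes neuronal differentiation, read 1438 and 203.8, 7.05-fold lower. Its other probe set read 684.9 and 126.2, a log2 ratio of -2.44, and the gene was called lower in every alternative run. Hes1, the Notch-induced repressor of proneural genes, went the other way at 267.2 and 731.6, 2.74-fold higher, and was called higher in every alternative except calls at 3-fold. Among the other members, the Notch modifier Lfng read 203.7 and 106.0 and the ligand Dll1 251.3 and 136.5, both under 2-fold as deposited. Lfng was called lower under all 5 other scalings and Dll1 under 4.

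Over all 9 neural lists, 107 genes were on the array and 76 measured. Called lower were 2 of 76 (2.63%, against 3.27% of all measured genes), and called higher 9 of 76 (11.8%, against 10.8%). The median log2 ratio was 0.24, against 0.12 for all measured genes. Under the other scalings the count of lower genes was 5 to 8 and that of higher genes 6 to 9, out of 74 to 76 measured. Their share of lower genes was then 6.58% to 10.8%, against 3.98% to 7.53% of all measured genes, and it was the larger share in each of the 5. Crmp1 and Hes6 were among the lower ones in each. Direction was fixed by the floor for 11 of the 76 genes, which were above it on 1 array only. The counts hold for the listed genes. Pou3f1 and Nkx6-3, both lower, are not in them, and relatives of listed genes were not gone through in either direction.

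**Figure D3:**
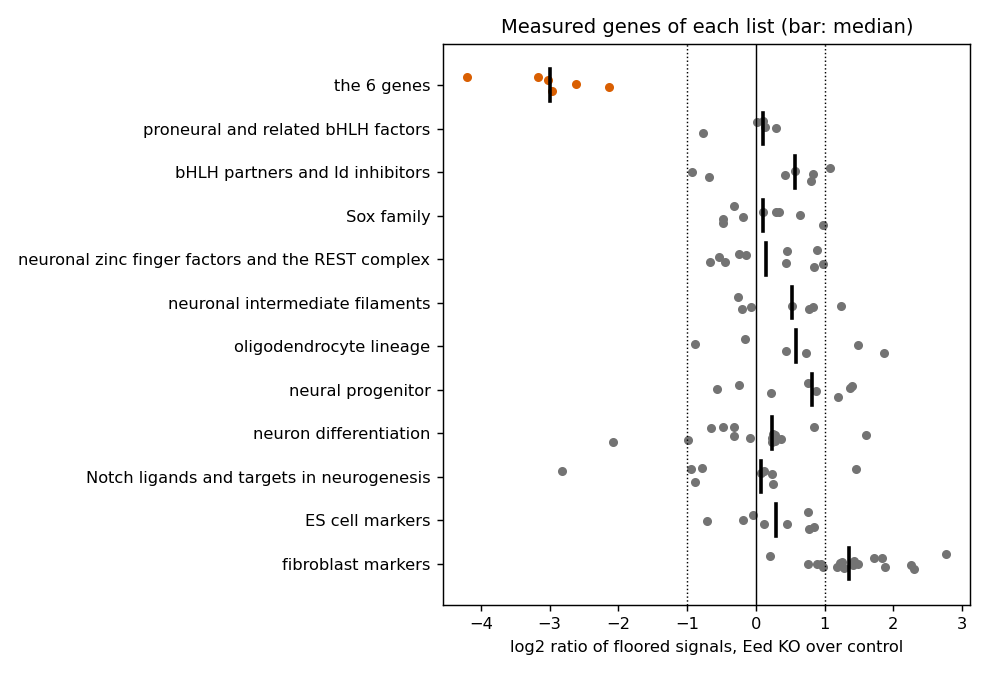
Log2 ratio (Eed KO over control, floored signals) of each measured gene of the 12 lists, with the list median as a bar and dotted lines at 2-fold. The 6 genes have a median of -2.99, while the median of every neural list lies between 0.08 and 0.82 with the deposited scaling.

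Markers of another cell type moved the other way in the same arrays. Of 19 fibroblast markers on the array, 18 were measured, and 13 of these were called higher and 0 lower (background 10.8% and 3.27%), with a median log2 ratio of 1.35. With equal medians 9 were called higher. They summed to a signal of 21093 on the control array against 42024, and Lum was under the floor on both arrays. Prrx1 (136.1 to 931.4), Pdgfrb (63.6 to 312.7), Dcn (116.3 to 554.1) and Col6a1 (81.3 to 300.0) differed most. The part of such cells in the signals of the 6 genes was not tested.

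Position along the chromosome was not used to choose the genes, so the 3 genes with a probe set on each side were read in the RefSeq order of GRCm38.p6. Olig1 and Olig2, on chromosome 16, were neighbours of each other with 1 clone-named gene, 4932438H23Rik, lying beyond Olig2. The other 34 places around the 6 genes were held by 30 different genes, of which 23 were measured. Called lower were 0 of 23 (background 3.27%) and called higher 1 of 23 (10.8%), and the median log2 ratio was 0.05. At 1.5-fold, 3 were lower (background 10.2%) and 4 higher (23.3%).

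Around the Olig pair, the signals on both sides were on the array and mostly above the floor. On 1 side, 4932438H23Rik was under the floor on both arrays, Paxbp1 read 1263 and 1136, and Synj1 639.4 and 762.2. On the other, the interferon receptor gene Ifnar2 read 315.2 and 515.8, Il10rb, an interleukin receptor gene, 106.6 and 360.6 (3.38-fold higher, with its other probe set under the floor), and A930006K02Rik 78.9 and 88.0. None of the 5 measured genes around the pair was called lower (background 3.27%).

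On chromosome 2, Neurod1 stood between Cerkl (under the floor on both arrays), Itga4 (81.0 and 84.0) and Ube2e3 (3268 and 3071) on 1 side and Itprid2 (580.5 and 565.4), Ppp1r1c (62.6 and 64.8) and Pde1a (43.7 and 65.4) on the other. Insm1, on the same chromosome, had Cfap61 (69.3 and 46.2), Crnkl1 (1976 and 1219) and Naa20 (3773 and 2613) on 1 side. On the other were Ralgapa2 (151.0 and 272.7), Kiz (212.4 and 327.4) and Xrn2 (3049 and 3741). All of these were within 2-fold, although Crnkl1 had a log2 ratio of -0.70 and was called lower when scaled to equal medians.

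On chromosome 19, Ina lay next to Pcgf6, which encodes a ring finger subunit of a variant Polycomb repressive complex 1. Pcgf6 read 3437 and 2221, and its 3 probe sets had log2 ratios of -0.63 to -0.46. Further along were Taf5 (936.3 and 629.9) and Atp5md (5270 and 5381), and on the other side Nt5c2 (1254 and 782.2), Cnnm2 (486.5 and 714.9) and As3mt (292.2 and 334.5). On chromosome 12, 5 of the 6 genes beside Sox11 were under the floor on both arrays: Cmpk2, 4933409F18Rik, Gm9866, Dcdc2c and Colec11. The remaining one, Allc, read 79.1 and 93.6. Sox11 was thus the only called gene of this stretch.

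**Figure D4:**
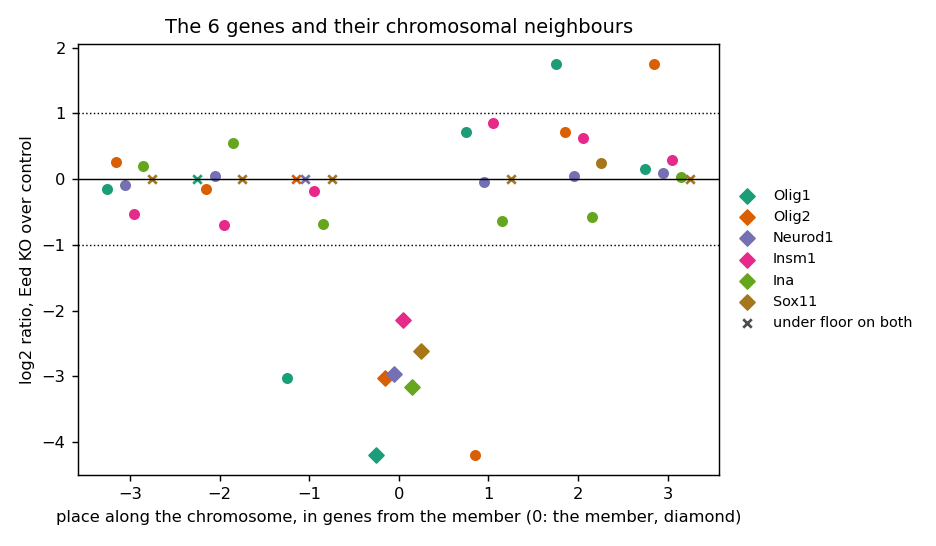
Log2 ratio of each of the 6 genes (diamonds, place 0) and of the 3 genes on each side of it in RefSeq order (circles, or crosses where under the floor on both arrays), with dotted lines at 2-fold. The circles below -2 are Olig1 and Olig2 as neighbours of each other, and 1 other gene, Il10rb, lies outside the 2-fold lines, drawn for both Olig genes.

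The genes whose signals were most like those of the 6 were found by the distance between floored log2 signals over both arrays, which is a likeness over 2 values. Ina was closest to Apela, a peptide hormone gene (1535 to 174.2, distance 0.15), and to the homeobox gene Gbx2 (1583 to 191.2, 0.29). Neurod1 was closest to Dpys (1016 to 98.4, 0.33) and Gli1 (0.56), and Sox11 to Gli1 (0.48) and Slc40a1, an iron exporter gene (965.4 to 174.7, 0.48). Gli1 is a transcription factor gene of Hedgehog signalling. Olig1 was closest to Mid1 (1402 to 72.6, 0.40), whose other measured probe set went the other way, and to Dpys (0.70). Olig2 was closest to Tmem267 (577.3 to 34.6, 0.21) and Exoc3l (563.1 to 73.8, 0.32), and Insm1 to Thbs3 (267.0 to 46.6) and Plvap (266.7 to 41.9), each at 0.02. Olig2, Tmem267, Insm1, Thbs3 and Plvap were under the floor in the Eed KO, so the distances between them are those of the control signals alone.

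**Figure D5:**
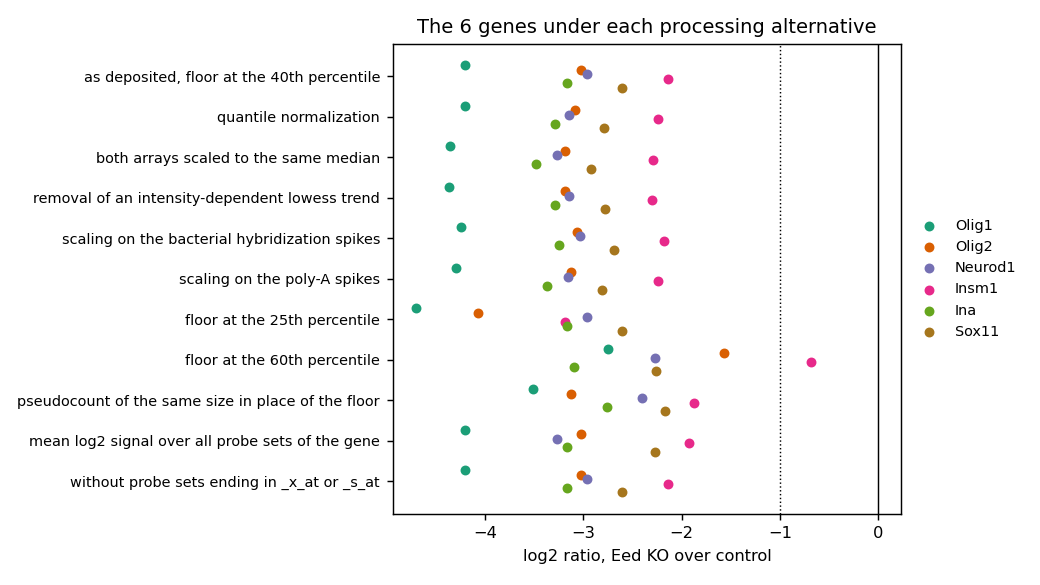
Log2 ratio of each of the 6 genes with the deposited values and under the 10 alternatives of scaling, floor and probe set choice, with a dotted line at 2-fold lower and a solid line at 0. Every point is below 0, and 1 point, Insm1 with a floor at percentile 60 (-0.68), lies above the 2-fold line.

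The 6 ratios stayed below 1 under each of the 10 alternatives that apply to a ratio. The genes were chosen for a large difference, so this could hardly have come out otherwise. Olig1 and Olig2 have 1 probe set each, so averaging probe sets or leaving out _x_at and _s_at ones could not change them. Under the 5 other scalings the median of the 6 ran from -3.22 to -3.05 on the log2 scale. Olig1 went from -4.70 with a floor at percentile 25 to -2.74 at the 60th, and Olig2 from -4.07 to -1.57, while the Eed KO signal of Olig1 lay above the lower of these floors and that of Olig2 under both. Sox11 and Ina, whose representing probe sets were above the floor on both arrays, ran from -2.92 to -2.17 and from -3.48 to -2.76.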

How the data were processed

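Gene expression was measured on 2 Affymetrix MOE430 2.0 arrays, with groups taken from the sample titles. Per the submitters' processing notes the authors used MAS5, with no version given there. The deposited table gives MAS5 intensities on a linear scale, and detection calls were not used here. The trimmed mean, without the lowest and highest 2% of probe sets, was 500.0 on both arrays. For arrays, their number limits the precision.

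Gene names came from GEO's platform annotation, in which 34945 probe sets had 1 symbol and 932 with several were left unnamed. The floor, the 2-fold size, the 12 gene lists and the 6 genes were chosen with earlier results of these data known. The text names every probe set of the 6 genes, all genes of the bHLH, Sox and intermediate filament lists, up to 4 most different genes of each other list, 3 chromosomal neighbours on each side, and the 2 most similar genes of each member. Alternatives were 5 scalings (quantile, same median, lowess with span 0.3, bacterial spikes, poly-A spikes), a floor at percentile 25 or 60, a pseudocount of the floor's size, the mean over probe sets, leaving out _x_at and _s_at probe sets, and calls at 1.5- and 3-fold. The calling code was run on simulated data with differences larger than 2-fold, as a check of the code only. The error of calls on these 2 arrays was not tested. Python 3.11.15, pandas 2.3.3 and statsmodels 0.14.6 were used.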

Additional observations from a re-analysis of the deposited data

How the results depend on the processing

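No paired analysis was possible because each group has 1 array. As deposited, 6 of the 6 genes were called lower, and 5 with a floor at percentile 60. Log2 ratios that moved by more than the spread between probe sets were, with a floor at percentile 25, -4.70 (Olig1), -4.07 (Olig2) and -3.18 (Insm1). With a floor at percentile 60 they were -2.74 (Olig1), -1.57 (Olig2), -2.27 (Neurod1) and -0.68 (Insm1). With the pseudocount they were -3.51 (Olig1), -2.40 (Neurod1), -2.76 (Ina) and -2.17 (Sox11). The floor and the pseudocount lower the size of any ratio whose signals lie near them.

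The lower count of the neural lists, 2 as deposited, was 6 after quantile normalization, 8 with equal medians, 5 after the lowess trend was removed, 5 with the bacterial spikes, 7 with the poly-A spikes, 6 with a floor at percentile 25 and 12 at 1.5-fold. Their higher count, 9 as deposited, was 4 with a floor at percentile 60, 5 as the mean over probe sets, 22 at 1.5-fold and 2 at 3-fold. Among the neighbours, 1 was lower with equal medians and 3 at 1.5-fold, against 0 as deposited, and 0 were higher as the mean over probe sets and 4 at 1.5-fold, against 1.

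Of all measured genes, 451 were lower as deposited, 1034 with equal medians, 766 with the poly-A spikes, 684 with a floor at percentile 25, 1413 at 1.5-fold and 102 at 3-fold. Higher were 1483 as deposited, 873 with equal medians, 2244 and 806 with floors at percentiles 25 and 60, 3210 at 1.5-fold and 487 at 3-fold. Higher genes made up 76.7% of all calls as deposited, 64.7% after quantile normalization, 66.1% after the lowess trend was removed, 57.6% with the poly-A spikes and 45.8% with equal medians. Over all measured genes the median log2 ratio was 0.12 as deposited and -0.16 with equal medians. Where no cause is given above, the cause was not tested.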
